A study of Mus musculus with 6 samples.

Results

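The TGF-beta ligand genes Tgfb1 and Tgfb2, the receptor genes Tgfbr1, Tgfbr2 and Tgfbr3, the receptor-activated SMAD genes Smad2 and Smad3 and the SMAD co-repressor gene Skil were examined in an ATAC-seq table of mouse lung endothelial cells. ATAC-seq marks open chromatin as DNA into which the Tn5 transposase inserts sequencing adapters. A region belonged to one of these genes if the deposited table gave it that gene symbol, or, where the table gave no gene, if its nearest protein-coding start site within 100 kb among the genes of the table was theirs. This took 60 of 58172 regions. Of these, 9 were promoter regions, with a centre within 1 kb of a start site, and 51 were distal.

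The study compared 3 WT libraries from Cre-negative mice with 3 CSE-KO libraries from Cre-positive mice, in which cystathionine gamma-lyase (CSE, the enzyme encoded by Cth) was knocked out. The labels and design text used here name no Cre driver, no age and no pooling of animals, and Cre and the loss of the enzyme cannot be told apart. In bulk libraries such as these, fewer cells of a type and less open chromatin per cell cannot be told apart. The values are normalized whole numbers per region, called values below.

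TGF-beta ligands are secreted in a latent form and, once released, bind the type II receptor TGFBR2, which recruits and phosphorylates the type I receptor TGFBR1 (ALK5). The activated type I receptor phosphorylates SMAD2 and SMAD3, which join SMAD4 and enter the nucleus to regulate target genes. In endothelium the pathway takes part in vessel maturation, quiescence and, when sustained, endothelial-to-mesenchymal transition.

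Summed over regions, the values came to 5242490 to 5368491 in WT and to 5437296 to 5547417 in CSE-KO. The low values of the CSE-KO columns skip 35 to 39 of the whole numbers from 1 to 100, which puts the worth of 1 read at about 1.54 to 1.64 and the reads in regions at about 3320000 to 3610000. The WT columns skip none, so 1 read was worth at most about 1 there and weak regions are measured less precisely in CSE-KO. The Cth promoter had 195, 157 and 167 in WT against 11, 6 and 2 in CSE-KO, so no library went against its label. Of 10 endothelial markers 9 had a region (Pecam1 had none). The promoter regions of 8 of them summed to 913 to 1005 in WT against 1005 to 1088 in CSE-KO. Over all 59 regions of these endothelial markers, limma called 3 higher and 16 lower in CSE-KO, with a median log2 change of -0.44. Of all tested regions 7.7% were called higher and 9.6% lower. Of 13 mural and fibroblast markers 7 had a region. The promoter regions of 4 of them summed to 198 to 204 in WT against 254 to 281 in CSE-KO. The mural and fibroblast genes Cspg4, Rgs5, Col1a2, Dcn, Lum and Tcf21 had none. Of 12 leukocyte markers 5 had a region. The promoter regions of only 2 of them summed to 247 to 284 in WT against 175 to 186 in CSE-KO. Ptprc, the pan-leukocyte gene, and Cd3e, Cd3g, Cd79a, Itgam, Itgax and Csf1r had none. Lung epithelial and mesothelial markers had a region at 9 of 15, and Nkx2-1, Sftpc, Sftpb, Sftpa1, Ager and Wt1 had none. Promoter regions of 4 of these markers summed to 172 to 208 in WT against 152 to 221 in CSE-KO. By the same limma calls, 1 of 24 mural and fibroblast regions was higher and 3 lower. The counts were 4 and 2 of 35 epithelial and mesothelial regions and 0 and 1 of 8 leukocyte regions. The part of these marker differences in the results below was not tested.

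The promoter sequences show where the open regions of these genes sit. RefSeq promoter entries (build GRCm38.p6, the primary assembly of mm10) were matched by symbol for 5 of the 8 genes, Tgfb1, Tgfb2, Tgfbr1, Tgfbr2 and Smad3. Tgfbr3, Smad2 and Skil are named only. The 250 bases before the start are printed for the 4 genes whose open promoter region reaches into them: Tgfb2 at chr1:186705990-186706239 on the minus strand, Tgfbr1 at chr4:47352972-47353221 on the plus strand, Tgfbr2 at chr9:116175364-116175613 on the minus strand and Smad3 at chr9:63757995-63758244 on the minus strand. Capitals mark matches to the SMAD binding motif CAGAC and to the SP/KLF motif GGGCGG. Both strands were searched, and no 2 matches overlapped.

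Tgfb2: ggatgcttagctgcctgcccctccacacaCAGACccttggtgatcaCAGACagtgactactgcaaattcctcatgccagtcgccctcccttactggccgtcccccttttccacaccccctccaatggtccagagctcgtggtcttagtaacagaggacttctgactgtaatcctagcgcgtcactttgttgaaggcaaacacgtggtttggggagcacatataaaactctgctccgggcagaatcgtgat

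Tgfbr1: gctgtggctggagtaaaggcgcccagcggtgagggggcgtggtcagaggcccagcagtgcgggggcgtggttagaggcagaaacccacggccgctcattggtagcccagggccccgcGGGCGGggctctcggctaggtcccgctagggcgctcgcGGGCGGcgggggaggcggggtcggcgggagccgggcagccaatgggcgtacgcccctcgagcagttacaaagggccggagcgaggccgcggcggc

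Tgfbr2: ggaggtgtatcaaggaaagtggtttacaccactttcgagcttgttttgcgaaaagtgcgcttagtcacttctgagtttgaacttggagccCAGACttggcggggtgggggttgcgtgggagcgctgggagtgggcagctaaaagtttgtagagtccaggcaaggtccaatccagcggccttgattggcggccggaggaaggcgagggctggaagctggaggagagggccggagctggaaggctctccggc

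Smad3: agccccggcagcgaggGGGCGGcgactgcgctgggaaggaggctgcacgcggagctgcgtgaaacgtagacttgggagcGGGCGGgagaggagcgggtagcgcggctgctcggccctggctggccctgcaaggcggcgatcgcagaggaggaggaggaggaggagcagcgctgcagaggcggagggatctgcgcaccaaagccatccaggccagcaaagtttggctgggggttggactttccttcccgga

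The Tgfb2 stretch held 2 matches to CAGAC and that of Tgfbr2 held 1, a match that 42.2% of 32851 RefSeq promoter windows of 250 bases share. Tgfbr1 and Smad3 held 2 matches each to GGGCGG, found in 32.7% of the windows. None of the 4 stretches held the palindromic SMAD element GTCTAGAC (0.167% of windows), the AP-1 motif TGANTCA (6.75%), the ETS motif CCGGAAGT (2.88%) or the cyclic AMP response element TGACGTCA (1.55%). The open region covered all 250 bases at Tgfbr1, Tgfbr2 and Smad3. The open region of Tgfb2 lay mostly downstream of the start and covered only the 45 bases just before the start. Both CAGAC matches of Tgfb2 lay farther upstream, outside its open region. At Tgfb1 neither promoter region reached into the 250 bases. The matches are descriptions of the letters, and the SMAD motif is short enough to occur often by base composition.

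Comparing CSE-KO with WT, 11 of the 60 regions were called different by limma (adjusted p under 0.05 over 58129 tested regions), 2 higher and 9 lower. This is 18.3% of them, near the 17.3% called over all tested regions. In CSE-KO 7.7% of all regions were higher and 9.6% lower. All 60 passed the filter on low values. The groups did not overlap at 25 of the 60 regions (41.7%), 9 of them higher and 16 lower in CSE-KO, beside 39.5% over all regions (19% higher, 20.5% lower). The median log2 change of the 60 was -0.10, with quartiles of -0.68 and 0.19, beside a median of 0.00 over all tested regions. Taken as a whole, these genes thus changed about as often as regions elsewhere.

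All 11 calls were distal. Leaving out WT replicate 1, 2 or 3 left 0, 1 or 0 higher and 3 lower each time. Distal regions had 2 higher and 9 lower of 51, or 21.6%, beside 19.9% of all distal regions (8.43% higher, 11.5% lower). Their median change was -0.19 against -0.06 for all distal regions. None of the 9 promoter regions was called by limma, where 8.52% of all promoter regions were (5.23% higher, 3.29% lower). At an unadjusted p under 0.05 there were 2 such promoters, beside 23.9% of all promoters. The groups did not overlap at 2 of the 9 promoters (22.2%), both higher in CSE-KO. Over all promoters 36% did not overlap, and 23.9% were higher without overlap. Promoter regions had a median change of 0.15 against 0.11 for all promoters. By receptor, ligand and SMAD roles, the receptor genes had 7 calls at 27 regions (25.9%), the ligand genes 1 at 10 (10%) and the SMAD genes with Skil 3 at 23 (13%), beside 17.3% over all regions. Of the 7 receptor calls, 6 were at Tgfbr2. The plot of change against distance shows the calls gene by gene.

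**Figure D1:**
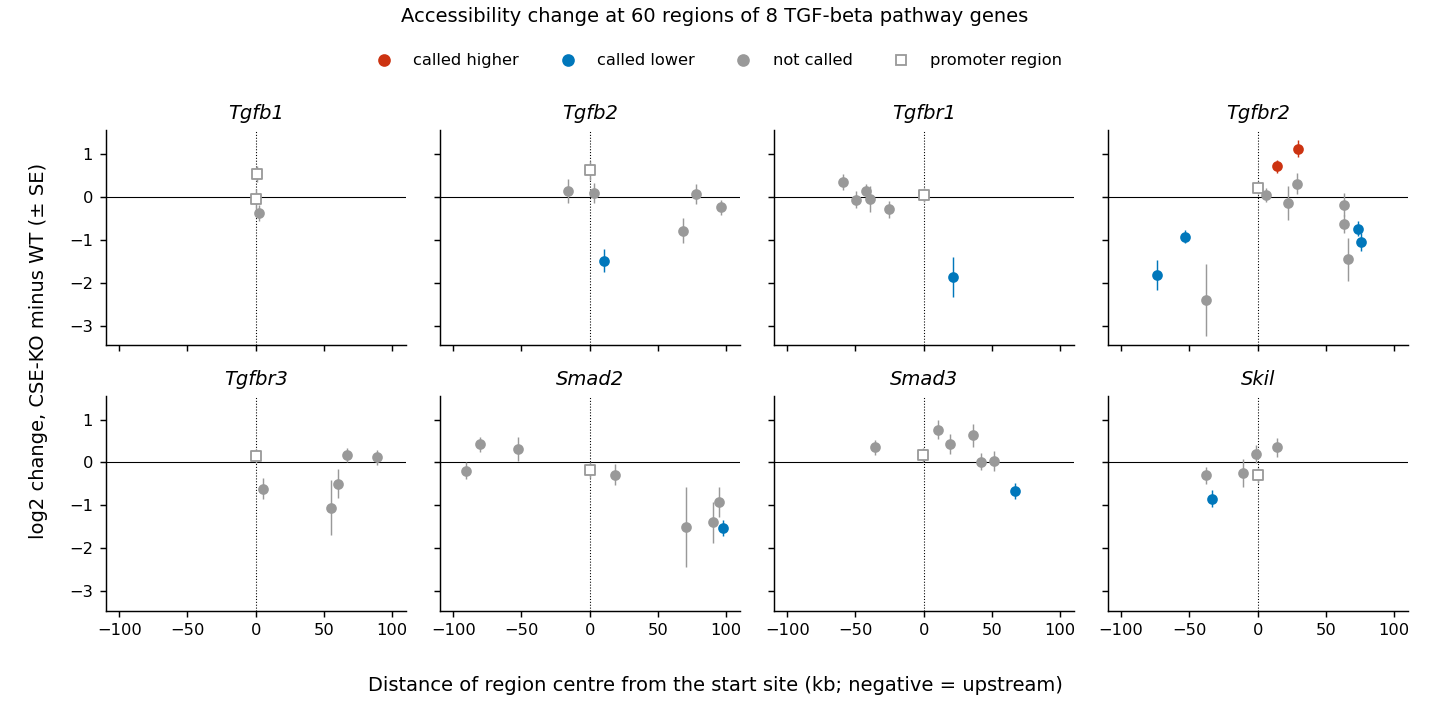
The log2 change of each of the 60 regions (vertical axis, CSE-KO minus WT, with its standard error) is plotted against the distance of the region's centre from the start site in kb, with 1 panel per gene. Squares are promoter regions and filled circles distal ones. Tgfbr2 holds both regions called higher and 4 of the 9 called lower.

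Tgfb1 encodes the most widely expressed TGF-beta ligand. Its promoter region centred 281 bp downstream of the start (chromosome 7 from 25687069 to 25687497) had values of 55, 86 and 74 in WT against 82, 69 and 57 in CSE-KO, and the groups overlapped (log2 change -0.04 ± 0.23 SE, adjusted p = 0.925). The second, 956 bp downstream (25687691 to 25688224), had 108, 99 and 90 in WT against 123, 167 and 144 in CSE-KO. Every CSE-KO library lay above every WT library there, yet the difference did not pass (log2 change 0.54 ± 0.18, adjusted p = 0.0863 by limma). The only distal region of Tgfb1, 2.46 kb downstream and inside the gene, was its most accessible, with 285, 264 and 249 in WT against 225, 228 and 167 in CSE-KO (log2 change -0.37 ± 0.19, adjusted p = 0.204). Adjacent regions of this gene therefore had opposite signs, neither called.

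Tgfb2 encodes the ligand that depends on betaglycan for high-affinity receptor binding. Its promoter region (chromosome 1 from 186705226 to 186706034) had 169, 146 and 192 in WT against 212, 331 and 248 in CSE-KO, again without overlap and without a call (log2 change 0.62 ± 0.22, adjusted p = 0.0934). With limma's trend and robust options this promoter was called (adjusted p = 0.00597), as was the second one of Tgfb1 (adjusted p = 0.0253). Inside the gene, 10.5 kb from the start (186695165 to 186695761), a region fell from 139, 116 and 125 in WT to 42, 64 and 33 in CSE-KO. This 2.79-fold fall (log2 change -1.48 ± 0.26, adjusted p = 0.0121) set the highest CSE-KO library well below the lowest WT library. Leaving out WT replicate 1 or 3 raised the adjusted p to 0.0536 or 0.0509, which ended the call. The other 5 distal regions of Tgfb2 had log2 changes from -0.79 to 0.14 and none was called. One of them, 16.1 kb upstream, lies in the RefSeq span of the neighbour Rrp15.

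Tgfbr1 encodes the type I receptor kinase. Its promoter region (chromosome 4 from 47352789 to 47353625) had 235, 228 and 259 in WT against 248, 276 and 226 in CSE-KO, a log2 change of 0.05 ± 0.16 with overlapping groups. One region fell, 21.7 kb into the gene (47374796 to 47375036), from 24, 21 and 25 in WT to 10, 2 and 8 in CSE-KO (log2 change -1.86 ± 0.46, adjusted p = 0.0353). The CSE-KO values there rest on few reads, and leaving out WT replicate 1, 2 or 3 ended the call, with an adjusted p of 0.106, 0.0931 or 0.108. The 5 regions upstream of Tgfbr1 had log2 changes from -0.29 to 0.35, none called. The strongest of them, 42.3 kb upstream, had 207, 176 and 200 in WT against 227, 204 and 217 in CSE-KO. It and the regions 49.6 and 59.2 kb upstream lie in the RefSeq span of Col15a1, which encodes a basement membrane collagen, so their assignment to Tgfbr1 rests on distance alone.

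Tgfbr2, the type II receptor gene that starts the kinase cascade, held the most regions and the most calls. Of its 14 regions, 2 were higher and 4 lower, or 42.9% called, beside 17.3% over all regions. Its promoter region (chromosome 9 from 116174544 to 116175806) had 308, 291 and 304 in WT against 307, 368 and 379 in CSE-KO and was not called (log2 change 0.22 ± 0.16, adjusted p = 0.389). The called distal regions split by distance at 50 kb, a cut planned for gene assignment and not for this split. At Tgfb2, Tgfbr1 and Skil the only called fall lay within 50 kb, and at Smad2 and Smad3 beyond it. Of 6 Tgfbr2 regions within 50 kb of the start, 2 were called higher and 0 lower, where 7.42% of all such distal regions were higher and 11.2% lower. Of 7 Tgfbr2 regions beyond 50 kb, 0 were called higher and 4 lower, where 7.84% and 12.7% were. All 7 had a log2 change under 0, with a median of -0.93. The 3 that were not called lie inside the gene. Of the 6 nearer regions 2 also had a log2 change under 0. One of them, a weak region 38 kb upstream, went against the split, with 10, 11 and 10 in WT against 0, 9 and 0 in CSE-KO, all below WT but not called (adjusted p = 0.0923).

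Both rises at Tgfbr2 were inside the gene. The region 14.1 kb from the start (116161094 to 116161487) went from 71, 64 and 72 in WT to 113, 113 and 116 in CSE-KO, a 1.64-fold rise (log2 change 0.72 ± 0.15, adjusted p = 0.022). The region 29.9 kb from the start (116145368 to 116145610) went from 16, 18 and 15 to 46, 32 and 34, a 2.19-fold rise (log2 change 1.13 ± 0.20, adjusted p = 0.0119). In both, the CSE-KO libraries lay above all WT libraries. Their near neighbour, 28.9 kb from the start, had 20, 31 and 28 against 28, 28 and 43 and was not called (adjusted p = 0.423).

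The falls at Tgfbr2 lay on both sides. Upstream, the region 53.4 kb away (116228405 to 116229142) was the gene's most accessible distal region, with 257, 232 and 230 in WT against 123, 127 and 126 in CSE-KO. It fell 1.9-fold (log2 change -0.93 ± 0.15, adjusted p = 0.0102), and its call held in every one of 15 alternative fits. It held narrowly without WT replicate 1, 2 or 3 (limma adjusted p = 0.0494, 0.0459 and 0.0454). A weak region 73.7 kb upstream (116248960 to 116249257) fell from 19, 26 and 25 to 3, 9 and 7 (log2 change -1.82 ± 0.35, adjusted p = 0.0159). Towards the 3' end of the gene, the region 73.3 kb from the start (116101901 to 116102209) fell from 59, 62 and 68 to 31, 41 and 41 (log2 change -0.74 ± 0.18, adjusted p = 0.0346). Its neighbour 76 kb from the start (116099208 to 116099507) fell from 40, 47 and 33 to 15, 21 and 20 (log2 change -1.06 ± 0.21, adjusted p = 0.018). No CSE-KO library reached a WT library at any of these 4 regions. This separation, like that of the rises, restates calls made on the same values.

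Several of these calls ended with 1 library fewer, while their directions stayed. Over the left-out libraries the log2 change ranged from 0.67 to 0.75 for the rise 14.1 kb away, from 0.98 to 1.23 for that 29.9 kb away, from -0.80 to -0.61 for the fall 73.3 kb away, from -1.19 to -0.92 for that 76 kb away and from -2.09 to -1.43 for that 73.7 kb away. With WT replicate 1, 2 or 3 left out, the adjusted p was 0.0741, 0.0896 and 0.0733 for the rise 14.1 kb away and 0.0915, 0.104 and 0.12 for the fall 73.3 kb away, which also ended without CSE-KO replicate 1 (adjusted p = 0.062). The rise 29.9 kb away had an adjusted p of 0.052 without the WT library numbered 1 and of 0.0558 without number 3. The fall 73.7 kb away had 0.064 and 0.0635 without WT number 2 and number 3, and the fall 76 kb away had 0.0687 and 0.0718 without WT number 1 and number 2.

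Summed per library, the 6 Tgfbr2 regions up to 50 kb came to 184, 182 and 186 in WT against 264, 244 and 244 in CSE-KO. The 7 beyond 50 kb came to 528, 503 and 509 in WT against 295, 287 and 267 in CSE-KO. These are log2 changes of 0.45 and -0.86, each with groups that do not overlap. The two-sided exact permutation p was 0.1 for each, the smallest that 3 libraries against 3 allow. Both sums restate the regions described above and add no separate evidence for the split. How many other genes have such near or far sums was not counted. Over all 13 distal regions the sum went from 697 ± 13.7 to 534 ± 24.1 (SD, n = 3 each; exact permutation p = 0.1), so its direction is set by the far regions.

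**Figure D2:**
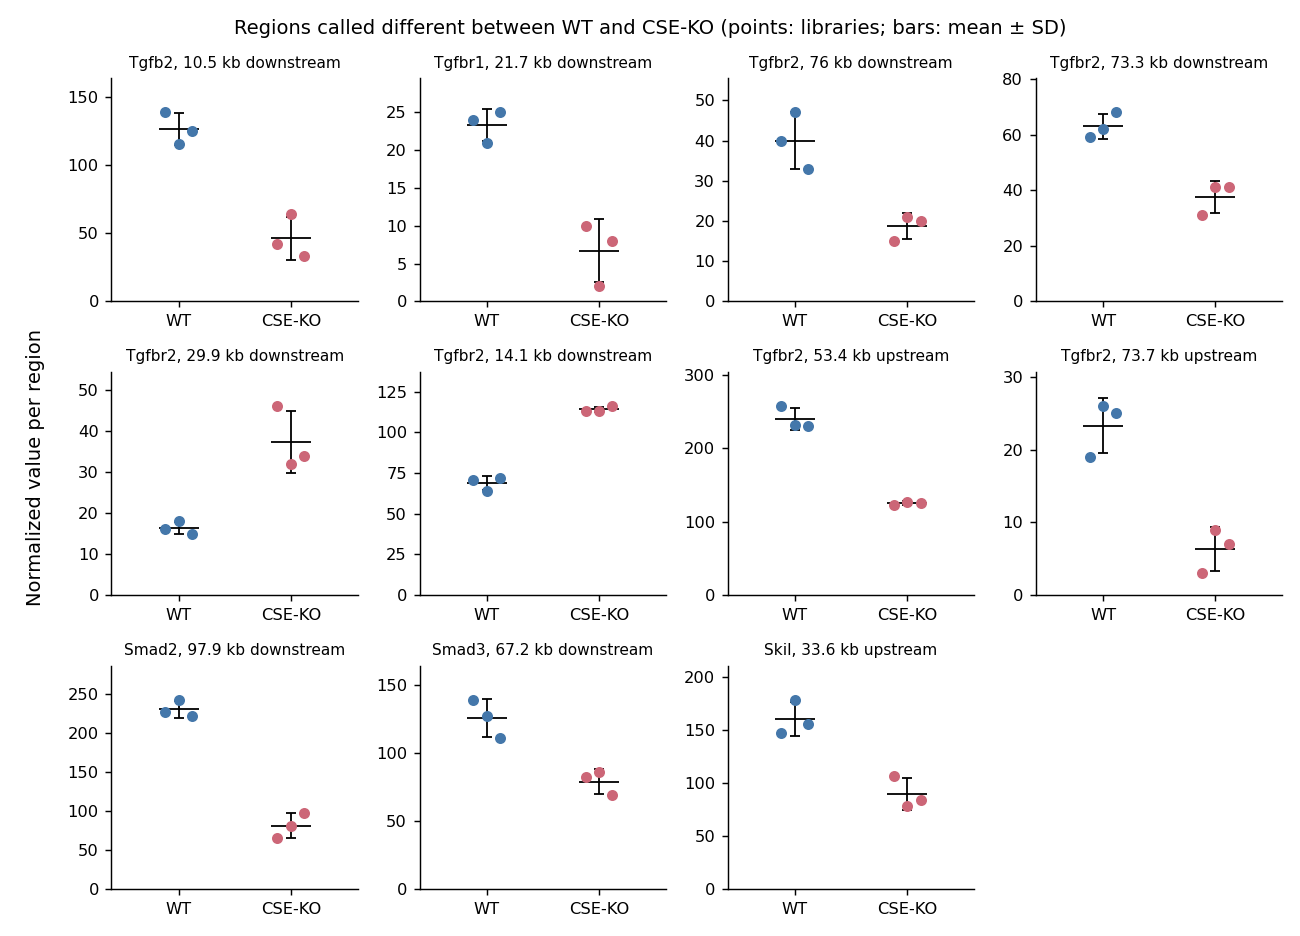
Normalized values (vertical axis, from 0) of each library at the 11 regions called by limma, with the mean and SD of each group (n = 3). In the 9 falls and the 2 rises the WT and CSE-KO points do not overlap, and the rises are the Tgfbr2 regions 14.1 and 29.9 kb downstream of the start. The regions were picked by these same values, so the separation adds no evidence to the calls.

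Tgfbr3 encodes betaglycan, the co-receptor that presents TGF-beta2 to the signalling receptors. None of its 6 regions was called by limma, and 1 had an unadjusted p under 0.05. The promoter region (chromosome 5 from 107288612 to 107289741) had 320, 242 and 278 in WT against 289, 329 and 310 in CSE-KO (log2 change 0.15 ± 0.17, adjusted p = 0.583). The distal region of smallest p, 5.47 kb into the gene, had 25, 18 and 27 in WT against 16, 11 and 18 in CSE-KO (log2 change -0.61 ± 0.24, adjusted p = 0.128). A broad region of 1093 bp 88.9 kb into the gene was nearly as open as the promoter, with 247, 241 and 233 in WT against 219, 299 and 274 in CSE-KO (log2 change 0.12 ± 0.18). The groups overlapped at all 6 regions of Tgfbr3.

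Smad2, a receptor-activated SMAD, had a strong and overlapping promoter region (chromosome 18 from 76240936 to 76242526), with 562, 423 and 496 in WT against 379, 498 and 428 in CSE-KO (log2 change -0.18 ± 0.19, adjusted p = 0.542). Its only call was the fall of smallest adjusted p among the 60 regions. The region 97.9 kb downstream of the start (76339141 to 76339878) had 227, 242 and 221 in WT against 65, 80 and 97 in CSE-KO. It fell 2.86-fold (log2 change -1.52 ± 0.19, adjusted p = 0.00548), and the call held in every one of 15 alternative fits. The site lies past the end of Smad2, outside any RefSeq protein-coding span, and just inside the 100 kb limit. Its neighbours 90.6 and 94.5 kb away had 48, 51 and 51 against 42, 9 and 16 and 35, 47 and 38 against 25, 11 and 31. Both sets of CSE-KO values lay below WT without a call (adjusted p = 0.0892 and 0.125). Upstream of Smad2, the region 80.5 kb away had 126, 128 and 139 in WT against 199, 162 and 166 in CSE-KO, higher in every library but not called (adjusted p = 0.125).

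Smad3, the receptor-activated SMAD that binds DNA directly, had an uncalled promoter region (chromosome 9 from 63757741 to 63758547) with 156, 173 and 174 in WT against 194, 204 and 174 in CSE-KO (log2 change 0.18 ± 0.16, adjusted p = 0.457). Its only call was inside the gene, 67.2 kb from the start (63690429 to 63691156), where values fell from 139, 127 and 111 to 82, 86 and 69 (1.58-fold, log2 change -0.66 ± 0.18, adjusted p = 0.0434). That call ended without any 1 of the 6 libraries (adjusted p from 0.0567 to 0.144). All 5 regions within 50 kb of the start had log2 changes above 0, from 0.02 to 0.76, with no call. The region 10.2 kb into the gene came nearest, with 25, 36 and 28 in WT against 54, 40 and 59 in CSE-KO (adjusted p = 0.0567). Their sum was 191, 237 and 210 in WT against 260, 279 and 337 in CSE-KO (log2 change 0.46, two-sided exact permutation p = 0.1). This sum restates the same regions.

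Skil encodes SnoN, which represses SMAD complexes and is itself induced by TGF-beta. It had the most accessible promoter region per length, and the values were 720, 686 and 820 in WT against 513, 688 and 618 in CSE-KO (chromosome 3 from 31094360 to 31095925; log2 change -0.30 ± 0.18, adjusted p = 0.292). With the trend and robust options this promoter was called lower (adjusted p = 0.0417). The region 33.6 kb upstream (31061218 to 31061787) fell from 147, 178 and 155 to 106, 78 and 84, or 1.79-fold (log2 change -0.84 ± 0.19, adjusted p = 0.0252). Leaving out any WT library ended this call (adjusted p = 0.0707, 0.0958 and 0.0825 for replicates 1 to 3), as did leaving out CSE-KO replicate 2 or 3 (0.0554 and 0.0546). The stronger region 38 kb upstream had 330, 346 and 268 against 268, 276 and 220 (log2 change -0.30 ± 0.19, adjusted p = 0.292).

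Per kb of region, WT promoter values ran from 167 ± 36.4 and 185 ± 16.9 at the 2 Tgfb1 regions through 208 ± 12.5 at Smad3, 209 ± 28.4 at Tgfb2, 238 ± 7.04 at Tgfbr2, 248 ± 34.5 at Tgfbr3, 288 ± 19.4 at Tgfbr1 and 310 ± 43.7 at Smad2 to 474 ± 44.5 at Skil (SD, n = 3). Only Skil stood above its lower neighbour by more than the sum of both SDs, and Smad2 and Tgfbr1, Tgfbr3 and Tgfbr2, and Tgfb2 and Smad3 differed by less than either larger SD. In CSE-KO, Skil was also highest, at 387 ± 56.2.

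**Figure D3:**
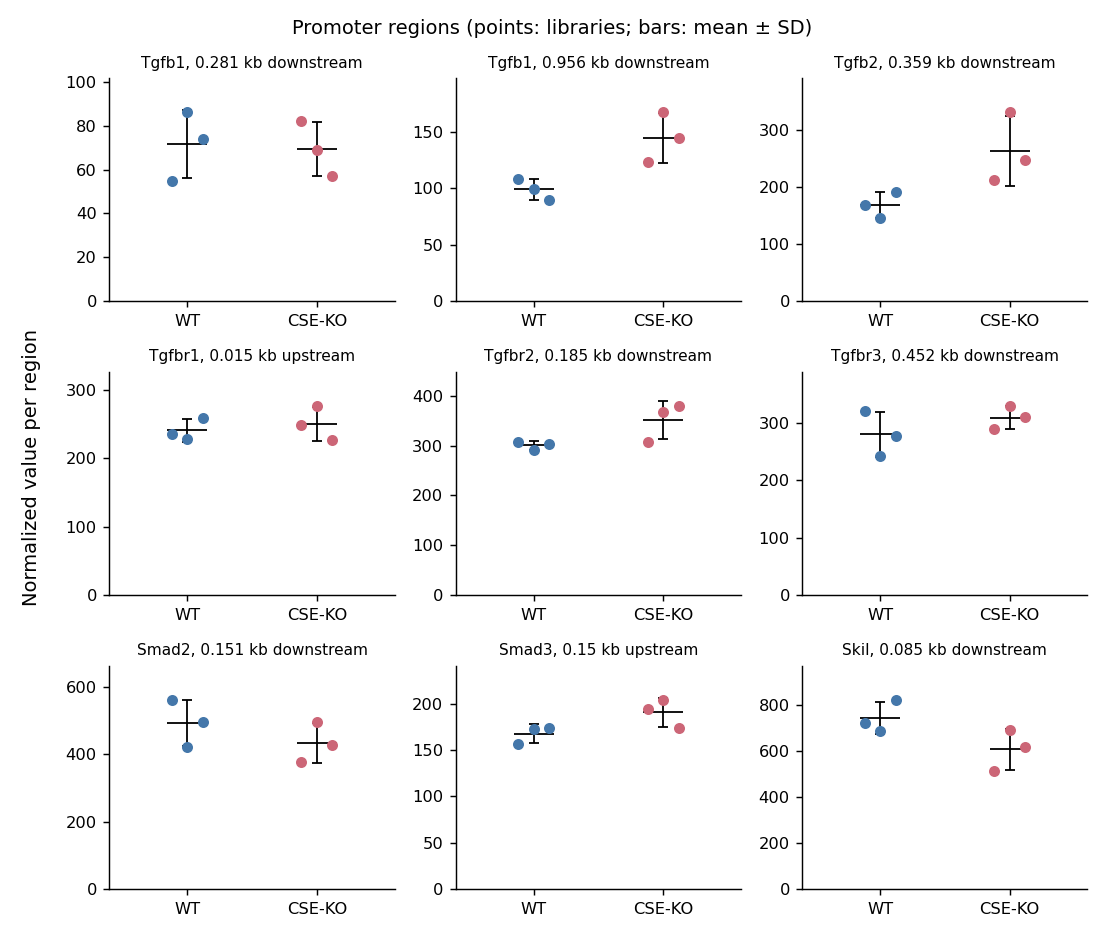
Normalized values (vertical axis, from 0) of each library at the 9 promoter regions, with the mean and SD of each group (n = 3). The groups overlap at 7 regions, and the CSE-KO points lie above the WT points at the Tgfb1 region 956 bp from the start and at the Tgfb2 promoter. Of all promoter regions 23.9% were higher in CSE-KO without overlap.

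Promoter and distal regions of the same gene were then set against each other within each library. The contrast was the mean log2(value + 1) of the promoter regions minus that of the distal regions. A scaling that acts on both alike cancels at strong regions, but not fully at weak ones because of the added 1. Depth can therefore still act on the contrast through weak distal regions. At Tgfb2 it was 1.58, 1.19 and 1.72 in WT against 1.99, 2.86 and 2.60 in CSE-KO. At Tgfbr2 it was 3.08, 2.95 and 2.99 in WT against 3.60, 3.62 and 4.09 in CSE-KO. Tgfb1, Tgfbr1 and Tgfbr3 also had no overlap, with differences of 0.62, 0.34 and 0.52 towards the promoter in CSE-KO, beside 0.99 at Tgfb2 and 0.77 at Tgfbr2. Over all 7496 genes with both kinds of region, 25.2% had CSE-KO above WT in this contrast without overlap. They were not matched to the 8 genes in number of distal regions or level. Each of the 5 genes without overlap reached the smallest exact permutation p of 0.1, or 0.16 after adjustment over the 8 genes. With gene assignment within 50 kb the Tgfbr2 difference was 0.27, and with a pseudocount of 5 that of Tgfbr3 was 0.41. The groups then overlapped in both (exact permutation p = 0.2). With a pseudocount of 5 the differences at Tgfbr2 and Tgfbr1 were also smaller, at 0.59 and 0.25 (exact permutation p = 0.1 each). The Tgfb1 contrast rests on 1 distal region. Smad2, Smad3 and Skil overlapped, with differences of 0.45, -0.04 and -0.13 (exact permutation p = 0.3, 0.8 and 0.6). Over all regions of the table, promoters likewise had a higher median change than distal regions, 0.11 against -0.06.

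**Figure D4:**
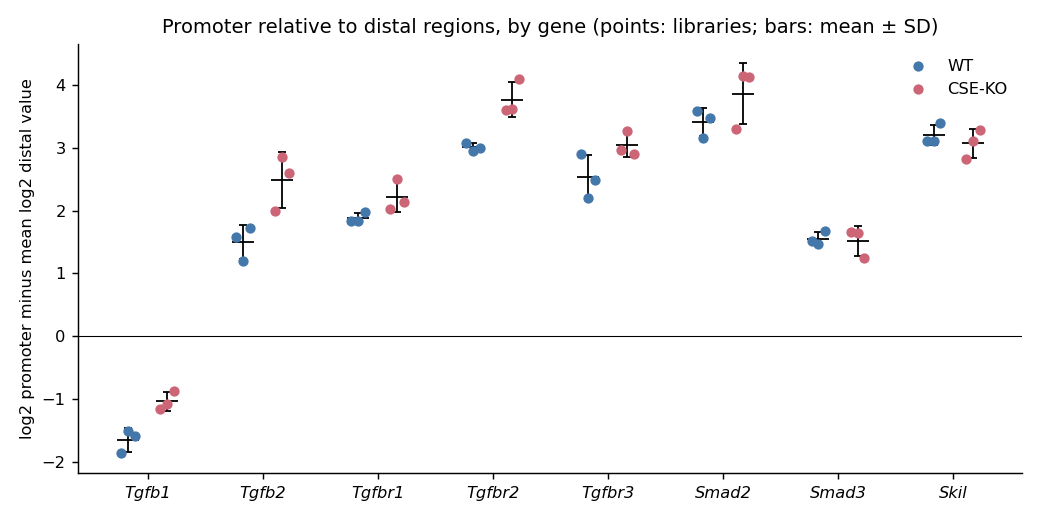
The log2 promoter value minus the mean log2 distal value of each gene (vertical axis) for each library, with the mean and SD of each group (n = 3). CSE-KO points lie above WT points for Tgfb1, Tgfb2, Tgfbr1, Tgfbr2 and Tgfbr3 and overlap them for Smad2, Smad3 and Skil.

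The summed distal values of 5 of the 8 genes were lower in CSE-KO without overlap, where 25.4% of 9211 genes with a distal region were. Those genes were not matched to the 8 in number of regions or level, so the shares are not like for like. The sum was 77.7% of WT at Tgfb1 (1 region), 77.5% at Tgfb2, 76.5% at Tgfbr2, 70.6% at Smad2 and 83.4% at Skil. Smad2 went from 570 ± 19.1 to 402 ± 50.3 and Skil from 628 ± 47.6 to 524 ± 31.3 (SD, n = 3 each). For Tgfbr1, Tgfbr3 and Smad3 the groups overlapped, with sums at 103%, 105% and 108% of WT. The exact permutation p was 0.1 for each of the 5, with 0.16 after adjustment over the 8 genes, and 0.4, 0.5 and 0.6 for the other 3.

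**Figure D5:**
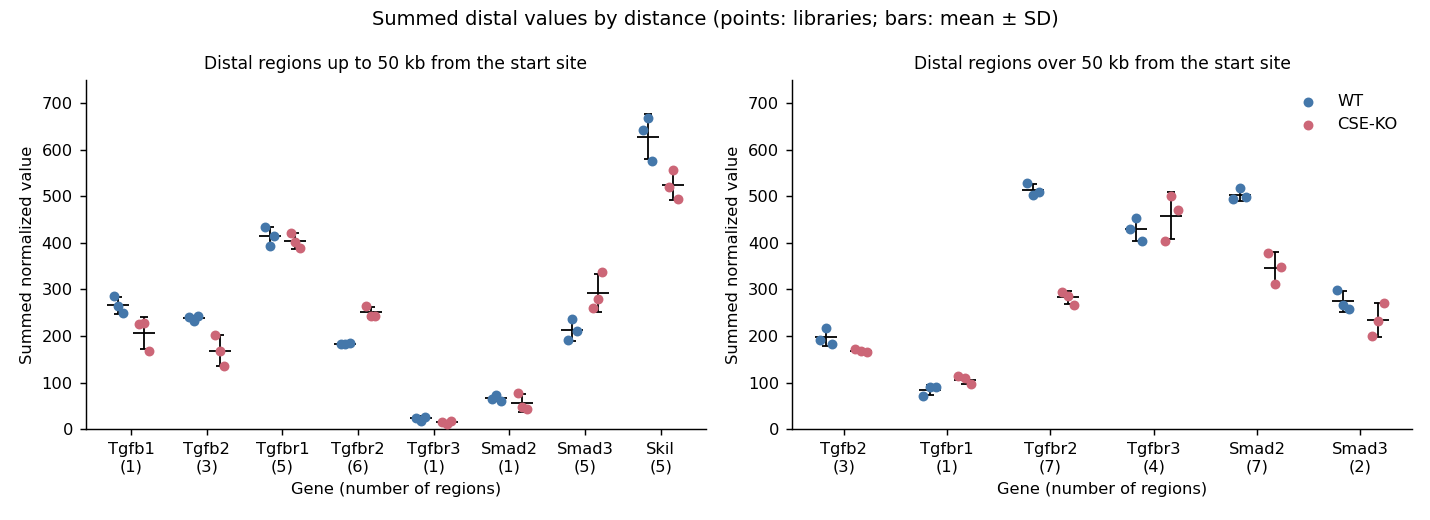
Summed normalized values (vertical axis) of the distal regions of each gene up to 50 kb (left) and over 50 kb (right) from the start site, by library, with the mean and SD of each group (n = 3) and the number of regions under each gene. At Tgfbr2 the near sums are higher and the far sums lower in CSE-KO, and Smad2 is lower in the far panel.

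Other genes of the pathway were counted the same way. Of 70 genes in 7 lists 61 had a region, and of their 294 regions 19 were higher and 47 lower, or 22.4%, beside the 17.3% of all regions given above. The median change was -0.06. Of their 58 promoter regions 5 were higher and 0 lower, or 8.62%, near the 8.52% of all promoter regions. Leaving out WT replicate 1, 2 or 3 left 8, 7 or 5 higher and 15, 17 or 15 lower.

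For the lists that follow, the share over all regions was 7.7% higher and 9.6% lower, or 17.3% called. Activin and nodal receptors and ligands share SMAD2 and SMAD3 with TGF-beta. They had 4 regions higher and 0 lower of 26, or 15.4% (median 0.16). The promoter of Acvr1c, the type I receptor ALK7, rose from 6, 7 and 12 to 38, 26 and 20 (adjusted p = 0.0165). A weak region 2.47 kb from Inhba, the activin A subunit, rose from 13, 1 and 7 to 65, 40 and 31 (adjusted p = 0.0308). Of the co-receptors and the endothelial type I receptor, 0 regions were higher and 2 lower of 13, or 15.4% (median 0.16). The region 8.55 kb upstream of Eng, the endothelial co-receptor endoglin, fell from 188, 140 and 144 to 49, 89 and 69 (2.31-fold, adjusted p = 0.0221). The region of smallest p at Bambi, a pseudoreceptor, had a mean of 26.7 ± 9.02 across WT libraries and 41 ± 9.17 across CSE-KO libraries (SD, limma adjusted p = 0.175).

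Genes of latent TGF-beta binding and activation had 3 higher and 6 lower of 67, or 13.4% (median -0.13). The region 10.1 kb upstream of Itgb8, an integrin subunit that activates latent TGF-beta, rose from 8, 21 and 12 to 75, 93 and 71 (5.85-fold, adjusted p = 0.00561). The region 33.1 kb from the start of Fbn1, the microfibril protein to which latent complexes attach, fell from 36, 41 and 35 to 3, 9 and 7 (adjusted p = 0.00641). The co-SMAD, SMAD partners and repressors had 1 higher and 16 lower of 54, or 31.5% (median -0.38). At Smad7, which blocks the receptors, the region 18.8 kb downstream of the start fell from 67, 61 and 64 to 20, 15 and 18 (adjusted p = 0.00299). At Ski, the relative of Skil, the region 43.8 kb downstream of the start fell from 369, 355 and 351 to 106, 149 and 149 (2.68-fold, adjusted p = 0.00636).

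Ubiquitin regulators had 4 higher and 5 lower of 35, or 25.7% (median 0.07). Regions near the ubiquitin ligases Wwp1 and Smurf2 moved in opposite directions, with a 3.26-fold rise from 16 ± 3 to 54 ± 6 and a 2.34-fold fall from 30.3 ± 2.52 to 12.7 ± 3.79 (limma adjusted p = 0.00435 and 0.0141, SD). TGF-beta and SMAD3 target genes had 6 higher and 12 lower of 82, or 22% (median -0.18). Regions 58.5 kb from Pmepa1 and 77.8 kb from Klf10, both induced by TGF-beta, fell from 41.7 ± 8.08 to 7.33 ± 1.15 and from 83 ± 12.5 to 29 ± 1 (limma adjusted p = 0.00275 and 0.00465). Genes of endothelial-to-mesenchymal transition had 1 higher and 6 lower of 22, or 31.8% (median -0.08). The region 9.79 kb from the start of Vim, the intermediate filament gene, fell from 283, 286 and 259 to 80, 58 and 103 (3.49-fold, adjusted p = 0.00561). The region 5.23 kb from Snai1, a transcription factor of the transition, fell from 594, 539 and 575 to 240, 287 and 299 (2.07-fold, adjusted p = 0.00938). No list was tested as a set, so the counts are descriptions.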

How the data were processed

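Per the labels, 3 WT and 3 CSE-KO ATAC-seq libraries were made from mouse lung endothelial cells. The build was mm10 and the tools listed, per the submitters' processing notes, were DESeq2 1.26.0, Picard 3.1.1, STAR 2.7.3a and Trimmomatic 0.39, without their roles. A peak caller or Tn5 shift is not given in the sources used here. Values deposited by the authors were taken as a score: whole numbers on a common scale, with gaps that rounded, size-factor-scaled read counts would leave. The count models planned for raw counts were therefore not run.

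Regions with a mean of at least 5 were tested with limma 3.58.1 (R 4.3.3) after a log2(value + 1) transform, as CSE-KO minus WT, and p was adjusted over 58129 regions by the Benjamini-Hochberg method at 0.05. Folds come from the mean log2(value + 1) of each group. At weak regions they can therefore be smaller or larger than the ratio of the mean values. Gene sums and promoter contrasts used two-sided exact permutation tests. The scripts were checked on simulated data. Nearest start sites came from 12711 protein-coding genes of the table. Coordinates are as the table gives them, and gene spans are RefSeq's for GRCm38.p6. The labels do not say that libraries came from separate animals, so the spread behind each p-value may be technical. No library was a copy of another (Pearson's r of log2 values across regions was 0.957 to 0.96 within WT and 0.902 to 0.907 within CSE-KO).

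Values were given for every promoter region and every called region of the 8 genes, for the distal region of smallest p of genes without a call, and for up to 2 genes per other pathway list by smallest p. Other regions named were chosen after their values were seen. The genes and lists were chosen with earlier results of these data known. Alternatives covered the pseudocount, filter, scaling, limma's options and weights, a replicate block, each left-out library, and the distances for promoters and gene assignment.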

Additional observations from a re-analysis of the deposited data

How the results depend on the processing

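With limma's trend and robust options 6 of the 60 regions were called higher in place of 2 and 13 lower in place of 9. Among regions of the other pathway genes 33 were higher in place of 19 and 65 lower in place of 47. The share of all regions called under the alternative fits is not given here, so these counts cannot be set against it. With each library left out in turn, calls among the 60 ranged from 0 to 3 higher and from 3 to 9 lower, and calls at the other pathway genes from 5 to 15 higher and from 15 to 43 lower; the fewest came without a WT library. The calls at Tgfbr2 53.4 kb upstream and Smad2 97.9 kb downstream held in each of 15 alternative fits (largest limma adjusted p = 0.0494 and 0.0323). Both regions lie too far out to belong to these genes with assignment within 50 kb. With gene assignment within 50 kb, 3 regions were lower in place of 9, since 6 lie farther out, and with regions the table itself assigns 0 were higher and 0 lower (2 of those 12 had an unadjusted p under 0.05 by limma). The summed distal change turned to -0.03 at Tgfbr1, 0.45 at Tgfbr2 and -0.64 at Tgfbr3 within 50 kb. That of Smad3 ranged from 0.00 to 0.20 over left-out libraries, with a sign change just under 0.00, and its promoter contrast from -0.11 to 0.10. The Skil contrast was 0.21 with promoters within 2.5 kb. The contrast of Tgfbr2 fell to 0.27 within 50 kb, and that of Tgfbr3 to 0.41 with a pseudocount of 5. The first Tgfb1 promoter region ranged from -0.22 to 0.10 and the Tgfbr1 promoter from -0.02 to 0.12. Same-numbered libraries did not deviate together (correlations of -0.00593, -0.0105 and 0.0105). Deviations of single regions also hold counting noise, so these correlations cannot exclude that the numbers pair the libraries. With the replicate block 11 regions of the other genes were higher and 30 lower, and 1 of the 60 was higher and 6 lower. The calls that ended under it were Tgfbr2 14.1 and 73.3 kb away (adjusted p = 0.0653 and 0.0664), Smad3 67.2 kb away (0.0771) and Skil 33.6 kb away (0.0686). Depth limits the weak regions most, since 1 read was worth about 1.54 to 1.64 in CSE-KO.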

Other observations

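The 3' part of Tgfbr3, more than 100 kb from its start site, holds 7 regions that belonged to no gene above. They were chosen after their values were seen. One, 5.38 kb from the 3' end of the RefSeq span (chromosome 5 from 107111778 to 107112107), fell from 55, 38 and 48 in WT libraries to 26, 31 and 26 in CSE-KO (log2 change -0.73 ± 0.20, limma adjusted p = 0.0431). Another, 13.6 kb from that end (107120004 to 107120386), rose from 41, 33 and 42 to 67, 54 and 64 (log2 change 0.66 ± 0.18, adjusted p = 0.0466). The most accessible of the 7 (107167376 to 107168089) had 154, 150 and 137 in WT against 260, 199 and 197 in CSE-KO, without overlap and without a call (adjusted p = 0.0735). The remaining 4 were not called.

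In Smad3, 3 regions near the 3' end of the gene fell to Iqch by distance. The outermost (chromosome 9 from 63657050 to 63657686) fell from 145, 161 and 124 to 90, 81 and 94 (log2 change -0.69 ± 0.17, adjusted p = 0.0373). The next had 67, 72 and 81 against 67, 75 and 120 (adjusted p = 0.595), and the third 84, 86 and 73 against 51, 46 and 67 (adjusted p = 0.0865).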
